A study of Mus musculus with 8 samples.

Results

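In single-nucleus libraries of adult mouse heart, 3260 nuclei met a rule for adventitial-like fibroblasts marked by Pi16 and Cd248, out of 14122 fibroblast nuclei, 37767 nuclei of adequate quality and 44839 barcodes in the 5 libraries used. The rule started from nuclei with at least 200 genes, under 5% mitochondrial transcripts, under 2% of unique molecular identifiers (UMIs, 1 per captured RNA molecule) from the cardiomyocyte genes Ttn, Ryr2 and Trdn, and 0 UMIs of endothelial Cdh5, macrophage Csf1r and pericyte Rgs5. It kept the 17809 nuclei that passed and took those with at least 2 of Pi16, Cd248, Gfpt2, Plcxd3 and Adgrd1 detected, at most 1 of Kcnip1, Gfra1, Hsd11b1 and Necab1 (the Kcnip1 set) and at most 1 of Fgf10, Acss3, Vit and Lvrn (the Fgf10 set). The nuclei chosen are called Pi16/Cd248 nuclei here. The nuclei were chosen by the measured UMIs of these genes. Because these nuclei were then compared with the rest of the same libraries, the levels of all genes that set them apart are given as a description without a test. Other fibroblast nuclei are 10862 further nuclei of the gate, admitted in either of 2 ways. They had at least 2 of 9 general fibroblast genes (Pdgfra, Dcn, Gsn, Col1a1, Col1a2, Col3a1, Abca8a, Tcf21, Lama2), or they met the rule turned round. The latter had at least 2 genes of the Kcnip1 set (2020 nuclei) or of the Fgf10 set (1090 nuclei). They also had at most 1 rule marker and at most 1 gene of the other set. Both kinds count among the 14122 fibroblast nuclei. Of the 3260 Pi16/Cd248 nuclei, 3243 had at least 2 of the 9 general fibroblast genes as well.

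The series crossed sex with a transgene: adult hearts labelled nTg came from wild-type mice without a transgene, and those labelled Tg from mice with a transgene of Ccna2, which encodes the cell-cycle regulator cyclin A2. The study's title asks how the sexes differ in cardiac signalling. Each of the 4 groups has 2 labelled libraries of nuclear RNA made with 10x Genomics chemistry, but 3 of the 4 matrices under nTg labels (nTg female 2, nTg male 1 and nTg male 2) did not match their own barcode lists in size and were identical to matrices under Tg labels, so they were not used. That leaves 3 female libraries, 1 of them under the nTg label, and 2 male libraries, both under the Tg label. Age beyond adult, strain, the promoter of the transgene and the number of animals per library are not given in the sources used here, so p-values measure the spread between libraries, which may be partly technical.

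Adventitial fibroblasts lie in the outer coat of blood vessels and in the connective tissue sheets of organs, outside the interstitium between muscle cells. In many tissues a fibroblast state with Pi16, Dpp4 and Cd34 is described as progenitor-like and rich in microfibril and loose matrix genes. Pi16 encodes a secreted protein of the CAP family, Cd248 the membrane glycoprotein endosialin, Plcxd3 a protein with a phospholipase C-like X domain and Adgrd1 an adhesion G protein-coupled receptor. Gfpt2 is an isoform of the rate-limiting enzyme of the hexosamine pathway, which makes UDP-N-acetylglucosamine through Gnpnat1, Pgm3 and Uap1. Together with UDP-glucuronate, made from UDP-glucose by Ugdh, this sugar is the substrate from which the synthases Has1, Has2 and Has3 build hyaluronan, a large water-holding polymer of the matrix.

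The upstream sequences of Gfpt2, which is a gene of the rule, and of Uap1, a later enzyme of the same pathway that is not, are shown because they stand for the hexosamine pathway inside and outside the rule. Each is the 250 bases before the start site in RefSeq (build GRCm38.p6), printed 5′ to 3′ on the gene's strand, with GC boxes (GGGCGG or its reverse complement CCGCCC) and CACCC boxes (CCACCC or GGGTGG) in capitals. The Gfpt2 window is chr11:49793905-49794154 on the plus strand and the Uap1 window chr1:170174965-170175214 on the minus strand. For both genes this start site lies upstream of the gene start in the GENCODE annotation, whose positions are given below. The bases right after each window were not found as a stretch in the GENCODE transcripts of the gene.
Gfpt2: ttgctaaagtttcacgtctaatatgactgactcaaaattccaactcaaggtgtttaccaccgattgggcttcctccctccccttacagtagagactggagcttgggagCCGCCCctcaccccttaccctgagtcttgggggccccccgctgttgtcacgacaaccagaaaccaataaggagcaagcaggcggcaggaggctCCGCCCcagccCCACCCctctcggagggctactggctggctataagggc
Uap1: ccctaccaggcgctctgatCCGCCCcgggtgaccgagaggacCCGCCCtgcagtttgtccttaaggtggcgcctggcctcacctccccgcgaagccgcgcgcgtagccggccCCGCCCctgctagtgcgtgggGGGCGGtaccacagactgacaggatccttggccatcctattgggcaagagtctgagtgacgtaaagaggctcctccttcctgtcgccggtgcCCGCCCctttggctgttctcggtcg
The Gfpt2 window held 2 GC boxes and 1 CACCC box, and that of Uap1 held 5 GC boxes and 0 CACCC boxes. Of 32851 upstream windows of this length, 32.7% held a GC box and 28.1% a CACCC box on either strand. GC content was 57.6% and 67.2%, beside a median of 52.4% over all windows. A match of these letters is a description of the window and no evidence of binding.

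Total UMIs per library lay between 25045167 and 38593706, and the UMIs summed over Pi16/Cd248 nuclei between 1438591 and 2848553. Levels below are UMIs per 1000000 UMIs of the summed nuclei (CPM), always listed with the females first: the library labelled nTg female 1, then the pair labelled Tg female (1, 2), then the pair labelled Tg male (1, 2). The gated nuclei of any pair of libraries shared between 2 and 5 barcodes. The library labelled Tg female 2 stood apart in several ways: its Pi16/Cd248 nuclei had the lowest median depth (2276 UMIs, beside 3186, 2884, 3087 and 2865), 9.79% of its endothelial nuclei carried at least 2 of the 5 rule markers against 0.476% to 1.05% in the others, and the doublet caller marked no barcode in it. Ccna2, the gene of the transgene, did not follow 2 of the labels. In Pi16/Cd248 nuclei it was 8.13 CPM (15 UMIs, exact Poisson interval 4.55 to 13.4) in the library labelled nTg female 1. In that labelled Tg female 1 it was 0.702 CPM (2 UMIs, 0.0850 to 2.54). It was 12.4 CPM in the library labelled Tg female 2, and the male libraries had 2.05 and 3.48 CPM. In other fibroblast nuclei Ccna2 was 19.2, 0.957, 45.6, 9.78 and 8.13 CPM over the 5 libraries. In gated nuclei that are not fibroblasts it was 44.5, 1.04, 170, 28.4 and 6.39 CPM. In each class the library labelled nTg female 1 lay above that labelled Tg female 1 and above both male libraries. With the promoter of the transgene not given, these levels cannot decide whether a label is right. Xist and the Y-linked genes fitted the sex labels of all 5 libraries.

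The Pi16/Cd248 nuclei were set apart by combinations of the rule markers and did not carry all of them together. Of the 3260 nuclei, 1834 had 2 of the 5 markers, 877 had 3, 419 had 4 and 130 had all 5. The pair Pi16 and Gfpt2 alone accounted for 795 nuclei (24.4%), Pi16 and Adgrd1 for 320 (9.82%), and Pi16 with Gfpt2 and Adgrd1 for 263 (8.07%). Pi16 and Cd248 were both detected in 923 nuclei, while 256 nuclei had neither and entered through Gfpt2, Plcxd3 and Adgrd1.

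Pi16 (ENSMUSG00000024011, GRCm38 chromosome 17, 29317680 to 29330593, plus strand) was 1069, 1028, 965, 1176 and 1227 CPM in Pi16/Cd248 nuclei. In other fibroblast nuclei it was 290.4, 280.1, 269, 331 and 290.2 CPM, so it was detected widely outside the chosen nuclei. Cd248 (ENSMUSG00000056481, chromosome 19, 5068078 to 5070682, plus strand) was 164, 238, 117, 151 and 155 CPM against 23.3, 24.5, 15.7, 23.2 and 25.3 CPM. Cd248 was highest in the library labelled Tg female 1 and lowest in that labelled Tg female 2. Gfpt2 (ENSMUSG00000020363, chromosome 11, 49794178 to 49838613, plus strand) was 581, 597, 714, 618 and 683 CPM against 107, 88.9, 111, 124 and 143 CPM. Plcxd3 (ENSMUSG00000049148, chromosome 15, 4375491 to 4575553, plus strand) was 232, 264, 138, 296 and 414 CPM against 31.3, 19.1, 13.1, 37.7 and 105 CPM. Its order over libraries was the same in both classes at its ends, with Tg female 2 lowest and Tg male 2 highest. Adgrd1 (ENSMUSG00000044017, chromosome 5, 129096750 to 129204599, plus strand) was 263, 238, 236, 325 and 334 CPM against 45.8, 39.2, 27.6, 85.4 and 94.7 CPM, and both male libraries lay above the 3 female libraries in both classes.

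**Figure D1:**
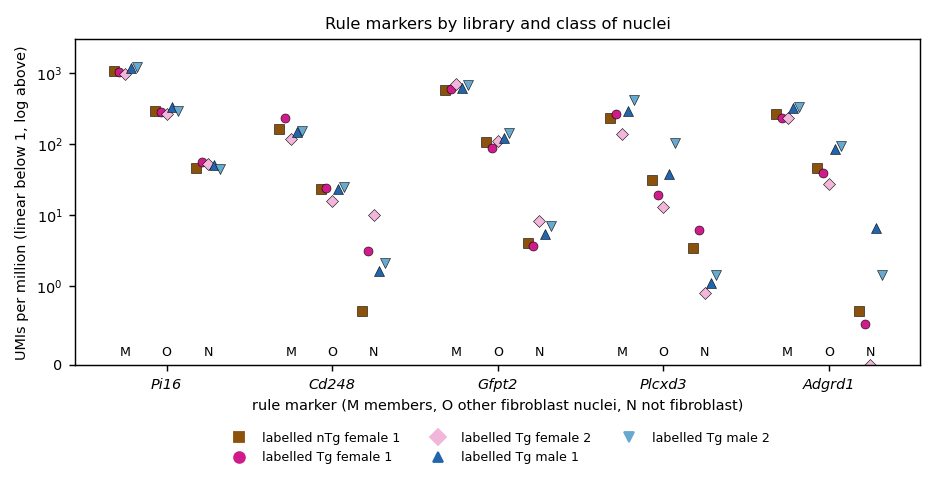
Levels of the 5 rule markers in CPM (vertical axis, linear below 1 and logarithmic above) for each library, in Pi16/Cd248 nuclei (M), other fibroblast nuclei (O) and gated nuclei that are not fibroblasts (N). Each point is 1 library; Pi16 in other fibroblast nuclei lies between 269 and 331 CPM, well above its level in nuclei that are not fibroblasts.

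At the edge of the rule, Pi16 and Gfpt2 are given as values only, since both are counted among the markers. The 2742 nuclei with 1 marker, just outside, had a mean Pi16 of 451 CPM, and the nuclei with 2 markers, just inside, had 764 CPM. For Gfpt2 the same values were 125 and 389 CPM. Free RNA can place UMIs of a gene in droplets whose nucleus does not express it, so detection was also read in endothelial nuclei. Called doublets were left out of the endothelial nuclei but not out of the fibroblast classes. Pi16 was detected in 89.1%, 88.9%, 87.1%, 87.1% and 85.7% of Pi16/Cd248 nuclei, in 41.4%, 38.3%, 31.9%, 38.0% and 34.5% of other fibroblast nuclei and in 12.4%, 12.8%, 19.4%, 9.63% and 7.98% of endothelial nuclei. At least 2 of the 5 markers were found in 0.787%, 0.476%, 9.79%, 0.774% and 1.05% of endothelial nuclei, whose median depth was 2470, 2148, 2115, 2331 and 2236 UMIs. After each nucleus was thinned to 1000 UMIs these shares were 0.264%, 0, 1.14%, 0.143% and 0.0818%.

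The label of adventitial-like fibroblasts was set beside marker lists. Of the 9 general fibroblast genes, 5 were higher and 1 was lower in Pi16/Cd248 nuclei in every library (median log2 ratio 0.27). This is no independent check, since the comparison class was defined in part by these genes. Pdgfra, a growth factor receptor of fibroblasts, was 702 against 652 CPM, the proteoglycan Dcn 2675 against 2782 CPM and the laminin chain Lama2 2342 against 2384 CPM (means over 5 libraries). Of 24 genes listed for adventitial and progenitor fibroblasts, 20 reached the 20 CPM needed to be compared, and 18 of these were higher in Pi16/Cd248 nuclei in each of the 5 libraries, with a median log2 ratio of 0.99. Over all 8282 genes compared, 16.2% were higher and 14.7% lower in every library, and the median log2 ratio was 0.01. Igfbp5 and Ly6c1 were the compared genes of the list that were not higher in every library, and Sema3e, Dact2, Uchl1 and Procr were under the level filter. The list's genes summed to 4600 to 6578 CPM in Pi16/Cd248 nuclei and 2663 to 3287 CPM in other fibroblast nuclei. In gated nuclei that are not fibroblasts they summed to 2271 to 3180 CPM, so the list as a whole is not particular to fibroblasts here. Of 11 interstitial fibroblast genes compared, 3 were higher and 4 lower in every library, with a median log2 ratio of −0.31. Col15a1, a basement membrane collagen of interstitial fibroblasts, was 453 against 349 CPM and Smoc2, a matricellular protein, 608 against 595 CPM. Both means went against the median of the list, and neither gene was among the 4 lower ones.

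Mfap5, a microfibril protein, was 748, 794, 593, 843 and 747 CPM in Pi16/Cd248 nuclei and 301, 304, 304, 349 and 300.3 CPM in other fibroblast nuclei. The lowest library of the first class lay above the highest of the second. Cd34, a sialomucin of progenitor and vascular cells, was 761, 751, 487, 742 and 649 CPM against 359, 363, 278, 361 and 323 CPM. Dpp4, a cell-surface peptidase used to mark progenitor-like fibroblasts, was 61.2, 93.0, 68.0, 67.5 and 97.3 CPM against 26.7, 34.6, 31.7, 23.7 and 44.8 CPM, again without overlap. Dpp4 is not particular to fibroblasts in these libraries, since gated nuclei that are not fibroblasts held 44.6 CPM. Pcolce2, an enhancer of procollagen processing, was 334 against 161 CPM, Fbn1 (fibrillin-1) 591 against 303 CPM and Timp2, a metalloprotease inhibitor, 311 against 178 CPM.

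Outside the 13 rule genes, 33 of the 8282 genes compared (0.398%) were at least 2-fold higher in Pi16/Cd248 nuclei in each of the 5 libraries and 55 (0.664%) at least 2-fold lower, with the higher class at 20 CPM or more. Ratios are log2 of mean CPM with 0.5 CPM added. The 33 higher genes held 3 enzymes of hyaluronan synthesis, the guidance ligand Sema3c, the chemokine-binding receptors Ackr3 and Ackr2, the complement genes C7 and Cd55, and the oxidase Duox1 with its maturation factor Duoxa1. Since the rule chose the nuclei from the same UMIs, neither count is a test.

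Of 18 hexosamine and hyaluronan genes listed besides Gfpt2, 11 were compared, 8 were higher in every library, 1 was lower, and the median log2 ratio was 0.50. Has2 (ENSMUSG00000022367, chromosome 15, 56665627 to 56694539, minus strand), the synthase of long hyaluronan chains in mesenchymal cells, was 55.3, 64.6, 94.6, 60.7 and 46.6 CPM in Pi16/Cd248 nuclei. In other fibroblast nuclei it was 10.6, 18.0, 24.8, 12.6 and 11.1 CPM, a log2 ratio of 2.02, and it was highest in the library labelled Tg female 2 in both classes. Uap1 (ENSMUSG00000026670, chromosome 1, 170141938 to 170174957, minus strand), the last enzyme on the way to UDP-N-acetylglucosamine, was 269.8, 252, 232, 339 and 332 CPM against 107, 80.0, 85.0, 121 and 114 CPM (log2 ratio 1.48). Ugdh (ENSMUSG00000029201, chromosome 5, 65413221 to 65435949, minus strand), which makes UDP-glucuronate, was 127, 117, 141, 153 and 156 CPM against 49.8, 56.5, 54.2, 60.9 and 78.0 CPM (log2 ratio 1.21). In all 5 libraries and for all 3 genes, the Pi16/Cd248 nuclei held at least 2-fold more than the other fibroblast nuclei of the same library.

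Other steps of the pathway differed less. Gfpt1, the paralog of Gfpt2, was 80.2 against 72.2 CPM with a log2 ratio of 0.15, Pgm3 41.6 against 34.5 CPM (0.27) and Ugp2, which makes UDP-glucose, 225 against 166 CPM (0.43). Gnpnat1 stayed under the level filter at 17.1 against 16.8 CPM. Has1 was 30.4 against 21.3 CPM (0.50), and Has3, under the filter, was 12.9 against 12.9 CPM. Of the proteins that bind hyaluronan, the proteoglycan Vcan (versican) was 344 against 180.3 CPM (0.93), Tnfaip6, which links hyaluronan to other matrix proteins, 32.1 against 19.7 CPM (0.69) and the receptor Cd44 24.5 against 18.3 CPM (0.41). Cemip2, a hyaluronan-degrading enzyme of the cell surface, was lower in every library, at 23.6 against 55.2 CPM (−1.21), and its level in nuclei that are not fibroblasts was 235 CPM. The long noncoding Has2os (chromosome 15, 56689944 to 56778399, plus strand) overlaps Has2 on the opposite strand and was 164 against 52.8 CPM (1.62). Whether strand was used in counting is not given in the sources used here, so reads of Has2 and Has2os may not be fully told apart.

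Among guidance and receptor genes, Sema3c (ENSMUSG00000028780, chromosome 5, 17574281 to 17730268, plus strand), a secreted semaphorin, was 192, 344, 226, 205 and 199.5 CPM in Pi16/Cd248 nuclei and 59.6, 91.3, 62.4, 69.9 and 79.7 CPM in other fibroblast nuclei. The library labelled Tg female 1 held the highest level in both classes. Ackr3 (chromosome 1, 90203980 to 90216751, plus strand), a scavenging receptor for the chemokine Cxcl12, was 302, 392, 317, 316 and 362 CPM against 109.8, 139.7, 128, 123 and 125 CPM, while Cxcl12 itself was 30.4 against 43.4 CPM and lower in every library. Gated nuclei that are not fibroblasts held a mean of 138 CPM of Ackr3. Adgrg2, an adhesion receptor of the same family as the rule marker Adgrd1, was 71.0, 75.8, 59.7, 70.9 and 64.6 CPM against 16.4, 16.8, 15.1, 29.2 and 27.6 CPM. Of 9 adhesion receptor genes compared besides Adgrd1, Adgrg2 alone was higher in every library, 4 were lower in every library and the median log2 ratio was −0.46. Tmem100, a membrane protein of BMP-responsive vascular cells, was 62.6 against 16.7 CPM (1.87), and 38.0 CPM in nuclei that are not fibroblasts.

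Genes of complement control were among the 15 with the highest ratios at 50 CPM or more. Cd55 (chromosome 1, 130439027 to 130462744, minus strand), a membrane regulator that speeds the decay of complement convertases, was 218, 323, 215, 249.5 and 250.2 CPM against 85.0, 122, 93.2, 98.2 and 93.0 CPM. C7 (chromosome 15, 4988762 to 5063740, minus strand), a component of the membrane attack complex, was 203, 239, 102, 462 and 912 CPM against 57.8, 38.6, 23.2, 176 and 412 CPM, with both male libraries above all 3 female libraries in each class. In Pi16/Cd248 nuclei of the female libraries, C7 lay below the higher male value in other fibroblast nuclei (412 CPM). Of the female levels, 203 and 239 CPM lay above the lower male value there (176 CPM) and 102 CPM lay below it. Of 16 chemokine, cytokine and complement genes compared, 6 were higher and 7 lower in every library (median log2 ratio −0.06), and the lower ones included C1s1 (97.2 against 152 CPM) and C4b (7.83 against 24.0 CPM), which encode early complement proteins.

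Duox1 (chromosome 2, 122315672 to 122347972, plus strand), an oxidase that releases hydrogen peroxide, had the highest ratio among genes at 50 CPM or more: it was 42.8, 52.7, 75.3, 45.7 and 35.5 CPM against 5.96, 7.25, 13.1, 7.51 and 6.80 CPM (log2 ratio 2.56). Its neighbour Duoxa1, needed for Duox1 to leave the endoplasmic reticulum, was 25.5, 42.1, 58.3, 34.8 and 13.9 CPM against 3.73, 5.33, 9.15, 3.83 and 3.21 CPM. Both had their highest level in the library labelled Tg female 2 in both classes of nuclei. Klf4 (chromosome 4, 55527143 to 55532466, minus strand), a transcription factor of stem and vascular cells, was 78.0, 92.0, 99.7, 83.2 and 84.8 CPM against 25.2, 36.6, 42.6, 34.4 and 31.2 CPM and is also present in nuclei that are not fibroblasts (97.4 CPM). Ahnak2 was 128 against 44.6 CPM, the actin-binding protein Dbn1 84.7 against 34.4 CPM and the noncoding Gm15675, which lies next to Cd55, 107 against 44.1 CPM. Of 36 transcription factor genes compared, 13 were higher and 9 lower in every library (median log2 ratio 0.07). Creb5 was 659 against 392 CPM, Sox9 35.6 against 19.4 CPM and Gli1, a target and effector of hedgehog signalling, 45.3 against 25.1 CPM, each higher in every library.

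**Figure D2:**
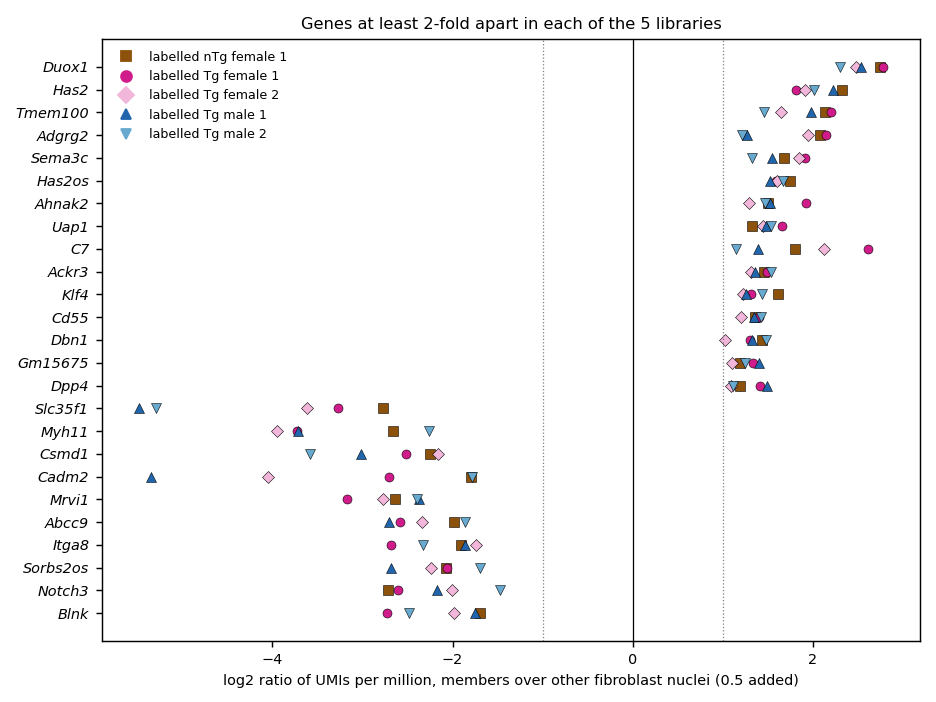
Log2 ratio of CPM, Pi16/Cd248 nuclei over other fibroblast nuclei (horizontal axis, 0.5 CPM added), for the 15 highest and 10 lowest genes that were at least 2-fold apart in every library, with 1 point per library and dotted lines at a ratio of 2 in either direction. Every point of the higher genes lies above a ratio of 2 and every point of the lower genes below its inverse; spread over libraries differs from gene to gene in both groups.

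Matrix genes were mixed, with microfibril components on the higher side. Of 17 elastic fibre and microfibril genes compared, 10 were higher and 1 was lower in every library, with a median log2 ratio of 0.33. Fbln2, a fibulin, was 628, 780.05, 589, 964 and 839 CPM against 296, 335, 316, 443 and 389 CPM, Emilin2 was 65.7 against 24.9 CPM and Ltbp2 31.9 against 13.1 CPM. Elastin itself (Eln) was 90.2 against 114 CPM and higher in 1 of 5 libraries. Of 22 collagen chains compared, 11 were higher and 8 lower in every library (median log2 ratio 0.16): the fibrillar chains Col1a1 (275 against 208 CPM), Col3a1 (932 against 772 CPM) and Col5a1 (317 against 226 CPM) were higher, Col14a1, which decorates fibrils, was higher (304 against 146 CPM), and the basement membrane chain Col4a1 (456 against 533 CPM) and the microfibrillar Col6a6 (65.1 against 147 CPM) were lower. Of 26 proteases and inhibitors compared, 12 were higher and 5 lower (median 0.08), among them the higher Adamtsl3 (587 against 315 CPM) and the lower Pappa (23.6 against 58.3 CPM), which cleaves IGF-binding proteins.

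Signalling lists were mixed. Of 19 TGF-beta and BMP genes compared, 6 were higher and 3 lower in every library (median log2 ratio 0.02), with the secreted Fstl1 higher (659.9, 950.3, 559.5, 912 and 732 CPM against 354, 488, 334, 449.9 and 371 CPM) and Bmper, a BMP-binding protein, lower (328, 215, 146, 309.5 and 402 CPM against 542, 421, 238, 649.5 and 793 CPM). Of 11 Wnt genes compared, 4 were higher and 2 lower (median 0.12), and of 10 hedgehog genes 5 were higher and 0 lower (median 0.16). Of 24 growth factor and binding protein genes, 3 were higher in every library: Igfbp6 (139 against 59.0 CPM), which binds IGF-II, Vegfa (185 against 108 CPM) and Fgf2 (77.4 against 60.8 CPM). A further 9 were lower (median −0.19), among them Angpt1, a ligand of the endothelial receptor Tie2 (113 against 218 CPM), and the neurotrophin Ntf3 (13.9 against 36.3 CPM). Of 19 semaphorin, slit and netrin genes, 6 were higher, with Ntn4 at 243 against 124 CPM, and 5 lower, with Slit3 at 527 against 767 CPM (median 0.03). Of 10 activation and myofibroblast genes compared, 4 were higher and 3 lower (median 0.19), Postn being 124 against 86.2 CPM and Fap 171 against 290.5 CPM.

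Several genes outside the rule followed the number of rule markers in a nucleus. For nuclei with 0, 1, 2, 3 and 4 or 5 markers, mean Has2 over the 5 libraries was 10.1, 23.8, 40.1, 63.7 and 134 CPM, Uap1 60.6, 117, 192, 317 and 478 CPM and Ugdh 47.7, 63.6, 91.5, 149 and 244 CPM. Sema3c over the same classes was 52.0, 96.9, 152, 231 and 457 CPM, Mfap5 201, 415, 591, 729.6 and 1151 CPM and Cd34 207, 420.4, 555, 685 and 976 CPM. The levels of these 6 genes increased at every step, through the threshold of 2 markers, without a gap. The general fibroblast gene Pdgfra and the interstitial gene Smoc2 had their highest level at 2 markers: Pdgfra was 443, 669.6, 729.96, 696 and 613 CPM and Smoc2 333, 597, 642, 616 and 504 CPM. Depth moved with the number of markers, with median UMIs per nucleus of 2054 to 2810 at 1 marker, 2194 to 2959 at 2 and 2672 to 3763 at 4 or 5, and its part in the steps was not tested beyond the scaling to CPM and the 1000 to 4000 UMI range given further on.

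The 256 Pi16/Cd248 nuclei that had neither Pi16 nor Cd248 were compared with the rest. Uap1 was 263 CPM in the nuclei without both and 288 CPM in the rest, Sema3c 194 and 236 CPM, and Dpp4 92.1 and 75.4 CPM. All 3 stayed above the means of other fibroblast nuclei (102, 72.6 and 32.3 CPM). Mfap5 was 483 and 768 CPM. Efhd1, a mitochondrial calcium-binding protein named after its values were seen, was 6.53 and 33.9 CPM, beside 6.16 CPM in other fibroblast nuclei. With 41 to 72 nuclei per library in the first group, its 6.53 CPM rests on few UMIs, so no closeness is read from it.

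The 2 sets that the rule excludes gave narrower comparisons. Against the Kcnip1 set (2020 nuclei, the rule turned round), all 15 named higher genes stayed at least 2-fold higher in each library, and the count of higher genes was 105 in place of 33. Has2 was 6.98 CPM there, Sema3c 19.2, Tmem100 3.18 and Dpp4 9.11 CPM. Against the Fgf10 set (1090 nuclei, of which 29 were in the library labelled Tg female 2), 9 of the 15 did. Sema3c was 96.8 CPM in this set, Dpp4 38.2 and C7 151 CPM, each below the 233, 77.4 and 384 CPM of Pi16/Cd248 nuclei. In nuclei limited to 1000 to 4000 UMIs, 14 of the 15 held in every library.

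Several of the lower genes are known from other cell types. The 10 lowest at 50 CPM or more were Slc35f1 (4.52 against 74.2 CPM), Myh11 (10.5 against 93.8 CPM), Csmd1 (38.5 against 256 CPM), Cadm2 (11.6 against 78.9 CPM), Mrvi1 (10.7 against 70.0 CPM), Abcc9 (23.1 against 114 CPM), Itga8 (19.7 against 89.8 CPM), Sorbs2os (36.9 against 165 CPM), Notch3 (17.1 against 77.2 CPM) and Blnk (12.0 against 52.5 CPM). Myh11 is the myosin of smooth muscle, and Abcc9 and Notch3 mark pericytes. Some were also high in nuclei of the Kcnip1 set, which are part of the comparison class. Blnk was 113 CPM there, Mrvi1 93.4, Abcc9 92.2, Notch3 85.4, Itga8 77.8 and Sorbs2os 65.8 CPM. Csmd1 was 49.1, Myh11 29.0, Cadm2 11.3 and Slc35f1 7.82 CPM in that set. Against it alone, 4 of the 10 genes stayed at least 2-fold lower in every library. When nuclei with any UMI of a short list of mural and Schwann genes, Myh11, Notch3 and Abcc9 among them, were left out of both classes, an alternative added after the data were seen, 3 of these 10 and 14 of the 15 higher genes stayed 2-fold apart in every library, and the count of lower genes was 31 in place of 55. Without the library labelled Tg male 2, the count of lower genes was 92. With mural and Schwann genes gone, Mrvi1, Itga8 and Blnk had log2 ratios of −2.09, −1.52 and −2.16.

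Marker lists of other cell types were summed per library in Pi16/Cd248 nuclei and then in other fibroblast nuclei. The 6 smooth muscle markers summed to 32.0 to 64.5 CPM and 174 to 359 CPM, without overlap, and 4 of 5 compared were lower at least 2-fold in every library. The 6 pericyte markers summed to 138 to 168 and 362 to 492 CPM, with Rgs5 at 0 by the gate. The 8 endothelial markers summed to 218 to 393 and 348 to 807 CPM, with Cdh5 at 0 by the gate, and the 8 cardiomyocyte markers to 1211 to 2147 and 1947 to 2916 CPM. The 8 macrophage markers summed to 18.8 to 102 and 79.2 to 275 CPM, with Csf1r at 0 by the gate. The 7 markers of mesothelium, the surface layer of the heart, summed to 4.33, 17.2, 22.5, 11.6 and 170.3 CPM by library against 24.2, 49.9, 40.1, 11.9 and 102 CPM. They were highest in the library labelled Tg male 2 in both classes. The 5 lymphatic endothelial markers summed to 21.7 to 70.7 and 56.9 to 126 CPM, the 8 lymphocyte markers to 3.48 to 26.2 and 7.18 to 61.4 CPM, the 6 adipocyte markers to 17.7 to 38.2 and 43.5 to 62.5 CPM with Adipoq at 0, and the 8 valve and tendon-like markers to 76.4 to 186 and 76.9 to 161 CPM. The 6 Schwann markers summed to 588 to 865 and 628 to 1235 CPM, of which Scn7a (613 against 662 CPM) and Cdh19 (169.97 against 310.1 CPM) made up most. The part of these nuclei in the lower genes was not tested beyond the alternative above.

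Pi16/Cd248 nuclei made up 24.5%, 26.0%, 26.2%, 16.5% and 20.6% of fibroblast nuclei in the 5 libraries (534 of 2181, 942 of 3620, 855 of 3260, 459 of 2779 and 470 of 2282; exact binomial 95% intervals 22.7 to 26.3, 24.6 to 27.5, 24.7 to 27.8, 15.2 to 18.0 and 19.0 to 22.3, which cover counting error only). The 3 female libraries averaged 25.6% ± 0.953 and the 2 male libraries 18.6% ± 2.88 (SD), without overlap. The difference was 7.02 points, and the exact permutation test (two-sided) gave p = 0.1, the smallest value that 3 against 2 libraries allow, so it cannot pass 0.05. Among the 4 libraries labelled Tg it was 7.57 points (exact p = 0.333, again the smallest possible).

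This difference depended on the clauses that exclude nuclei with genes of the other sets. A total of 1359 nuclei had at least 2 rule markers but were excluded, 551 through the Kcnip1 set, 612 through the Fgf10 set and 196 through both. They numbered 226, 239 and 110 in the female and 402 and 382 in the male libraries. With both clauses dropped, an alternative added after the data were seen, the shares were 34.8%, 32.6%, 29.6%, 31.0% and 37.3%, and the direction turned to −1.80 points (exact p = 0.6). With the Kcnip1 clause kept alone the difference was 1.60 points (exact p = 0.6), and with the Fgf10 clause kept alone 6.19 points (exact p = 0.1). It was also smaller at 1000 UMIs per nucleus, where the shares were 14.4%, 15.4%, 14.7%, 11.7% and 16.04% (0.943 points, exact p = 0.8; 39, 208, 168, 114 and 59 shallower nuclei of the gate left out), and with at least 3 markers required (1.83 points, exact p = 0.5). Thinned with both clauses dropped, the shares were 15.4%, 16.1%, 15.3%, 13.9% and 19.0%, and the direction turned as well (−0.869 points, exact p = 0.8). Thinned to 1000 UMIs, the library labelled Tg male 2 had the highest share of the 5 and that labelled Tg male 1 the lowest.

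**Figure D3:**
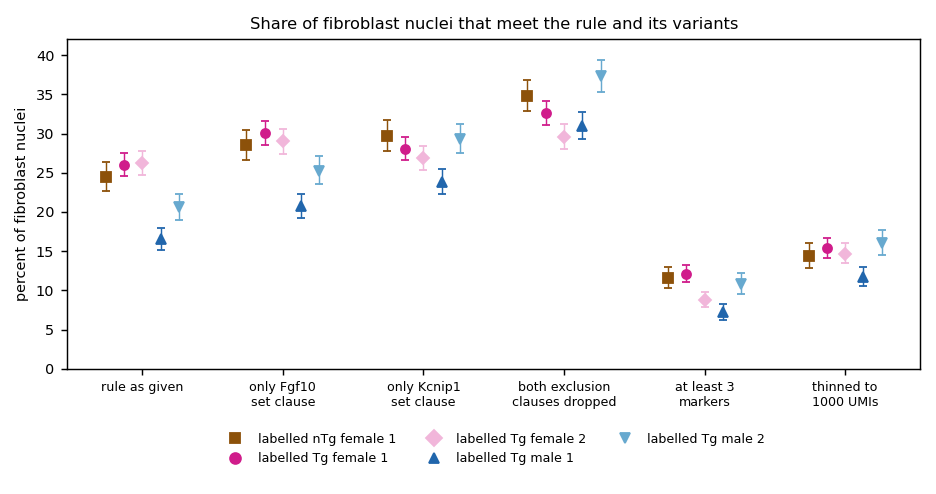
Percent of fibroblast nuclei (vertical axis) that met the rule and 5 variants of it, with 1 point per library and exact 95% binomial intervals. The male libraries lie below the female ones under the rule as given (16.5% and 20.6% against 24.5% to 26.2%) and among them once both exclusion clauses are dropped (31.0% and 37.3% against 29.6% to 34.8%).

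Within Pi16/Cd248 nuclei, gene levels were compared between the sexes by edgeR's quasi-likelihood test on UMI sums of the 5 libraries, with the genotype label as a covariate, so that males and females are in effect compared among the 4 Tg-labelled libraries. Of 12685 genes tested, 31 (0.244%) differed at an adjusted p under 0.05, with 4 (0.0315%) higher and 27 (0.213%) lower in the female libraries. Of the 31, 6 are sex-linked: Xist, its antisense Tsix, and the Y-linked Uty, Ddx3y, Eif2s3y and Kdm5d. Another 3 (Lvrn, Acss3 and Hsd11b1) are genes the rule used to exclude nuclei and are given as values only. The remaining 22 were 20 lower and 2 higher in the female libraries, and the libraries of the 2 sexes did not overlap in 17 of them, beside 21.2% of all genes tested. The result depends on the genotype label, which the level of Ccna2 did not follow in 2 of the female libraries. The levels of Ccna2 cannot decide whether a label is right, but a wrong label there would change which females are compared. Without the covariate, 8 genes were called, and of the 25 called genes that are not sex-linked 2 were still among them.

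Xist, the RNA that silences an X chromosome in females, was 1993, 2261, 1804, 0 and 0 CPM, at least 1980-fold higher in the female libraries when the male ones are set at the limit of 3 UMIs over the group. Uty was 1.08, 0.351, 1.38, 192 and 201 CPM, Ddx3y 0, 0, 0, 77.7 and 64.0 CPM and Kdm5d 0, 0, 0, 55.2 and 32.0 CPM. Eif2s3y was 0, 0, 0, 94.1 and 41.0 CPM, and Tsix, antisense to Xist, was 1329, 1584, 1675, 0 and 1.39 CPM, so reads of that pair may not be fully told apart. These levels check the sex labels, and no library stood with the other sex.

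Galnt15, an enzyme that starts O-linked glycan chains, was 69.9, 14.4, 16.5, 97.5 and 131 CPM (log2 difference −2.94, SE 0.25, edgeR adjusted p 1.51e-04). Fmo2, a flavin monooxygenase, was 392, 120.4, 109, 539.9 and 427 CPM (log2 difference −2.13, SE 0.22, edgeR adjusted p 0.00108). The gene 9330159F19Rik was 55.3, 10.2, 6.43, 128 and 124 CPM (log2 difference −3.94, SE 0.27, edgeR adjusted p 2.25e-05). In all 3 the libraries labelled Tg female were lowest, the library labelled nTg female 1 lay between them and the male libraries, and for Galnt15 and Fmo2 it was nearer the male ones. A330015K06Rik, a noncoding gene, was 41.7, 15.8, 14.7, 64.8 and 48.7 CPM (log2 difference −1.95, SE 0.26, edgeR adjusted p 0.0087). The higher genes were Adamts19, a secreted metalloprotease, at 136, 225, 148, 65.4 and 46.6 CPM (log2 difference 1.68, SE 0.27, edgeR adjusted p 0.025), and Trabd2b, a membrane protease that acts on Wnt proteins, at 37.4, 67.1, 46.9, 15.7 and 18.8 CPM (log2 difference 1.67, SE 0.29, edgeR adjusted p 0.0406). For both of these all 3 female libraries lay above the male ones.

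The other lower genes, named after their values were seen, included the dipeptidase Dpep1 at 319, 99.7, 97.8, 295 and 422 CPM, the pyrimidine-degrading enzyme Dpyd at 88.3, 45.3, 26.6, 125 and 139 CPM, the secreted Angptl7 at 131, 58.3, 56.0, 165 and 156 CPM and the receptor subunit Il6ra at 127, 78.3, 67.5, 141 and 211 CPM. Galnt16, another enzyme of O-linked glycans, was 84.0, 65.3, 40.9, 169 and 138 CPM and was also 1 of the 33 genes higher in Pi16/Cd248 nuclei. The ubiquitin ligase gene March3 was 117, 130.2, 151, 348 and 304 CPM, with all 3 female libraries together. In this it differed from Dpep1, Fkbp5, Glul, Slc10a6 and Ifi211, in which the library labelled nTg female 1 overlapped the male ones. Over the 22 genes that library was nearer the mean of the male libraries in 16 and nearer that of the libraries labelled Tg female in 6.

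Fkbp5, a glucocorticoid-induced cochaperone, was 734, 245, 271, 642 and 749 CPM (log2 difference −1.49, SE 0.23, edgeR adjusted p 0.0187), high in the library labelled nTg female 1 and low in both labelled Tg female. It was the 1 gene called by edgeR of 16 tested in a list of glucocorticoid- and stress-responsive genes, beside 0.244% of all genes. DESeq2 called 3 of the 16, and 8 had an unadjusted p under 0.05. The list's median log2 difference was −0.59 beside 0.01 over all genes tested, and it rests in effect on the 4 libraries labelled Tg. Summed over the list, levels were 4403, 1829, 2425, 4036 and 3902 CPM in Pi16/Cd248 nuclei. In other fibroblast nuclei they were 4302, 1782, 2362, 4216 and 3876 CPM. The library labelled nTg female 1 was thus the highest in both classes and those labelled Tg female the lowest. No gene of the lists for adventitial fibroblasts (21 tested), hexosamine and hyaluronan (15), elastic fibres (19), collagen chains (26), proteases (31) or transcription factors (43) passed the threshold between the sexes by edgeR. Of the 150 genes in these 6 lists, 24 had an unadjusted p under 0.05 and DESeq2 called 2. Over the 12685 genes, 824 had an unadjusted p under 0.05. The 5 rule markers did not pass the threshold either by edgeR or by DESeq2, and 2 of them had an unadjusted p under 0.05. Since the nuclei were chosen by detection of these genes, this cannot tell whether the markers differ between the sexes.

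The excluded sets' genes were 112, 35.1, 23.0, 229 and 287 CPM for Lvrn, an aminopeptidase, 49.3, 16.9, 6.89, 62.0 and 63.3 CPM for Acss3, a mitochondrial acyl-CoA synthetase, and 35.8, 27.4, 31.7, 73.6 and 86.9 CPM for Hsd11b1, which reactivates glucocorticoids. In other fibroblast nuclei Lvrn was 289, 89.1, 40.1, 567 and 809 CPM and Acss3 207, 60.4, 19.0, 230.3 and 286 CPM, so for both genes the male libraries were highest and those labelled Tg female lowest outside the chosen nuclei too. With both exclusion clauses dropped, 77 genes were called and all 31 were among them.

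**Figure D4:**
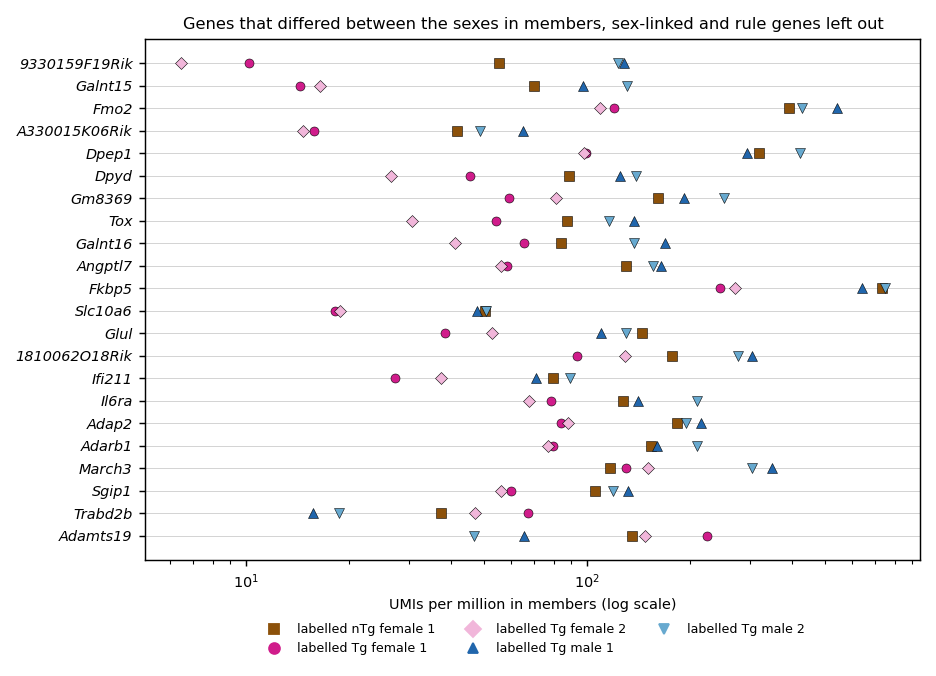
CPM in Pi16/Cd248 nuclei (horizontal axis, logarithmic) of the 22 genes that differed between the sexes and are neither sex-linked nor part of the rule, with 1 point per library. The libraries labelled Tg female lie apart from the male ones in every row, while the library labelled nTg female 1 lies close to or among the male ones in most of the lower genes.

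Other fibroblast nuclei of the same libraries gave 14 of 15683 genes by the same fit. All 22 genes had the same sign there and 6 were called in both. The sex difference itself was tested between the 2 classes of nuclei, and 0 of the 22 passed (edgeR interaction test, adjusted p between 0.0827 and 0.995), with 9 at an unadjusted p under 0.05. The number of calls moved with the libraries and settings: the count was 32 to 620 when 1 library was left out and 59 by DESeq2. Without the library labelled Tg female 1 the count was 620, without Tg female 2 it was 328, without Tg male 1 147 and without Tg male 2 82, each with 1 library left in an arm and the spread taken from the others.

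The difference of the sex difference between Pi16/Cd248 nuclei and other fibroblast nuclei passed the threshold in 33 of 15571 genes (0.212%, edgeR interaction test on 10 sums with the library as a block), with 18 in the positive and 15 in the negative direction. Without the library labelled Tg male 1 the count was 217, and without Tg female 1, Tg female 2 or Tg male 2 it was 59, 67 or 62. Among them were the rule markers Adgrd1, Plcxd3 and Gfpt2, given no weight here. The ratio of C7 in Pi16/Cd248 nuclei to other fibroblast nuclei was 3.52, 6.19, 4.42, 2.62 and 2.21 over the 5 libraries (log2 difference 1.23, SE 0.14, edgeR adjusted p 3.18e-04), higher in each female library than in either male one. The ratio of Plxna4, a semaphorin receptor subunit, was 0.273, 0.365, 0.536, 0.991 and 1.21 (log2 difference −1.36, SE 0.17, edgeR adjusted p 0.00101), lower in each female library. This comparison also depended on the exclusion clauses: nuclei with at least 2 rule markers that were excluded made up 13.7%, 8.92% and 4.57% of other fibroblast nuclei in the female and 17.3% and 21.1% in the male libraries. With both clauses dropped, 7 genes were called, 5 of them among the 33. C7 held at a log2 difference of 1.08 (adjusted p 0.0058) and Plxna4 did not, at −0.45 (adjusted p 0.753).

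The genotype labels could be set against each other only as 1 library against 4, without a test, and the level of Ccna2 did not follow 2 of the labels, as given above. Of 4500 genes at 50 CPM or more in this library or in the mean of the other 4, 24 (0.533%) lay outside the range of the 4 libraries labelled Tg and at least 2-fold from their mean, 16 higher and 8 lower. The other libraries, each set against the remaining 4 in the same way, gave 14 higher and 33 lower genes, 42 and 43, 17 and 17, and 30 and 17, so the library labelled nTg female 1 stood apart in fewer genes than any of them. Set against the libraries labelled Tg female alone, which share its sex, it had 54 higher and 26 lower genes of 4585. Errfi1, a feedback inhibitor of the EGF receptor family, was 666 CPM (1229 UMIs, interval 629 to 704) in the library labelled nTg female 1 and 53.7, 117, 273 and 168 CPM in those labelled Tg. Erbb4, a neuregulin receptor, was 124 CPM (228 UMIs, interval 108 to 141) in the library labelled nTg female 1 and 45.3, 23.0, 17.7 and 61.2 CPM in those labelled Tg. The potassium channel genes Kcnq5 and Kcnma1 and the stress-induced Ddit4 were also higher, at 74.2, 54.2 and 74.2 CPM against means of 12.0, 21.9 and 30.3 CPM. Wdr17 was 6.50 CPM (12 UMIs, interval 3.36 to 11.4) in the library labelled nTg female 1 and 87.1, 158, 68.2 and 535 CPM in those labelled Tg. Tll2, Plxna4, Klf10 and the haemoglobin gene Hbb-bs, which comes from blood, were lower, at 28.2, 32.5, 57.4 and 10.3 CPM against means of 95.8, 89.1, 131 and 50.2 CPM. Without the library labelled Tg male 1 the 24 genes became 41, and without Tg male 2 they became 38. In a single library, transgene, animal and preparation cannot be told apart.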

How the data were processed

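Single-nucleus RNA libraries of adult mouse heart were deposited as matrices of UMI counts per gene and barcode. The authors made these counts with Cell Ranger 7.0.0, per the file headers, on build mm10, per the submitters' processing notes; whether intronic reads and strand were used in counting is not given in the sources used here. Of 8 matrices, 5 had as many columns as their own barcode lists and were used, and the 3 others, identical in content to used ones, were left out. The members and gene lists were chosen with earlier results of these data known, so no pattern among them is independent support.

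Nuclei were gated by the rule given at the start, and their counts were summed per library and class and scaled to CPM (per 1000000 UMIs). Pi16/Cd248 nuclei were compared with other fibroblast nuclei without a test: a gene counted when at least 2-fold apart in each of 5 libraries and at 20 CPM or more in the higher class. Log2 ratios used a pseudocount of 0.5 CPM, which understates the change of low genes. Sex differences were tested with edgeR 4.0.16 (TMM scaling, filterByExpr, quasi-likelihood test, Benjamini-Hochberg adjustment over all genes tested, threshold 0.05) on summed counts. The design held sex and the genotype label. The difference of the sex difference was fitted over 10 sums with the library as a block. DESeq2 1.42.0 was an alternative. Shares were compared by exact permutation tests with exact (Clopper-Pearson) 95% intervals. A count of 0 was bounded at 3 UMIs over the group. The scripts were tested on simulated data.

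Doublets were left in among the gated nuclei and removed in an alternative. Scrublet (scanpy 1.11.5) marked 7.63% to 9.68% of barcodes in 4 libraries and 0 in the library labelled Tg female 2. There the 5% with the highest scores were removed in its place. Endothelial nuclei were nuclei of adequate quality with a UMI of Cdh5 and at least 3 endothelial markers. Doublets, or the highest scores in Tg female 2, were always left out of them. Genes were named by rules. In the comparison of classes these were the 15 highest and 10 lowest ratios at 50 CPM or more. Between the sexes they were up to 10 genes in each direction at 10 CPM or more with arms that do not overlap. For the library labelled nTg female 1 they were 5 in each direction. Genes of the fixed lists could be named with their list. Gene positions are from GENCODE M21 (GRCm38). Alternatives covered tool, scaling, filters, covariates, depth, the number of markers, the exclusion clauses, doublets, nuclei with mural or Schwann genes, and each library left out.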

Additional observations from a re-analysis of the deposited data

Results flagged for a closer look

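The difference between the sexes itself differed between Pi16/Cd248 nuclei and other fibroblast nuclei in 33 genes by the edgeR interaction test. Log2 values here are female minus male in Pi16/Cd248 nuclei less the same in other fibroblast nuclei. The gene lists held 8 of the 33 beside the rule's own genes. Positive values were found for the complement gene C7 (1.23, adjusted p 3.18e-04), the cadherin Cdh19 (0.72, adjusted p 0.00683) and the protease Adamts12 (0.64, adjusted p 0.0152). Negative values were found for the semaphorin receptor subunit Plxna4 (−1.36, adjusted p 0.00101), the mesothelial mucin Muc16 (−2.35, adjusted p 0.00305), Igfbp5, which binds insulin-like growth factors (−1.20, adjusted p 0.00338), Ccn2, a matricellular protein (−1.09, adjusted p 0.0238), and Flt1, a receptor for VEGF that marks endothelium (−1.08, adjusted p 0.0404). Without nuclei that hold mural or Schwann genes, Cdh19, itself on the Schwann marker list (0.53, adjusted p 0.147), Adamts12 (0.50, adjusted p 0.0525), Muc16 (−1.52, adjusted p 0.087) and Ccn2 (−0.93, adjusted p 0.0674) lost their call. With both exclusion clauses dropped from the rule, C7 alone of these 8 kept its call (1.08, adjusted p 0.0058). The others were then Plxna4 −0.45, Muc16 −1.51, Igfbp5 −0.51, Cdh19 0.39, Adamts12 0.46, Ccn2 −0.93 and Flt1 −0.45, with adjusted p from 0.0666 to 0.753. Without the library labelled Tg male 2, Muc16 (adjusted p 0.458) and Flt1 (adjusted p 0.366) lost their call. That library also had the highest sum of the 7 mesothelial markers, at 170.3 CPM in Pi16/Cd248 nuclei, and the part of such nuclei in the value of Muc16 was not tested. No group held enough libraries to look for one far from the others.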

How the results depend on the processing

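The share difference of 7.02 points between the sexes turned to −1.80 when both exclusion clauses were dropped and to −0.869 when thinning to 1000 UMIs was added to this, and kept its direction under the other alternatives run, from 0.943 to 9.06 points. The 31 genes called between the sexes became 59 with DESeq2, 234 without a filter on low counts, 8 without the genotype covariate, 91 with at least 3 markers, 55 without called doublets and 77 with the clauses dropped. Leaving out 1 library gave 32 to 620, with the lone library of an arm assumed to vary like the others. The replicate numbers share only a number (deviations of same-numbered libraries correlated at 0.02 over 12685 genes, 2 pairs); with the replicate block 14 genes were called, 8 of the 25 that are not sex-linked among them. Of these 25, 2 were still called without the genotype covariate, and no called gene changed direction in any setting. The 33 genes whose sex difference differed between classes became 7 with the clauses dropped, 59 without nuclei that hold mural or Schwann genes (22 of the 33 among them), and 32 to 217 with 1 library left out.

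The 33 higher genes became 105 against the Kcnip1 set. The 55 lower genes became 89 in nuclei of 1000 to 4000 UMIs, 88 without called doublets, 31 without nuclei that hold mural or Schwann genes, 96 with the clauses dropped and 56 to 92 with 1 library left out. Csmd1 turned to 0.034 (log2) without mural and Schwann genes and Cadm2 to 0.029 against the Kcnip1 set. Against the Fgf10 set, Slc35f1 was 0.44, Myh11 0.82, Csmd1 1.46, Cadm2 0.48 and Sorbs2os 0.057. The cause of these shifts was not tested; Myh11, Abcc9 and Notch3 give no value where nuclei with their UMIs are left out. The 24 genes of the library labelled nTg female 1 became 21 to 41 with 1 library left out. With 3 female and 2 male libraries, no permutation of libraries can reach 0.05, and nuclei with few UMIs limit which markers can be detected.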

Other observations

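Hedgehog genes, the readers of a secreted signal between cell layers, were not lower in every library in any of the 10 cases compared. Gli1 was 45.3 against 25.1 CPM, the coreceptors Gas1 94.7 against 72.3 CPM and Cdon 69.3 against 61.4 CPM, and the transcription factor Gli2 202 against 168 CPM, each higher in Pi16/Cd248 nuclei in all 5 libraries. Smo, which passes the signal on, was 61.9 against 63.5 CPM, and the ligand-binding inhibitor Hhip was near 0 (0.455 against 0.575 CPM). Among Wnt genes, the ligand Wnt9a was 32.4 against 18.9 CPM and the receptor Fzd2 23.0 against 16.7 CPM, both higher in every library, while the inhibitor Frzb (51.2 against 63.7 CPM) and the coreceptor Lrp5 (38.1 against 57.6 CPM) were lower in every library. Wif1, a secreted Wnt inhibitor under the level filter, was 1.43 against 9.68 CPM.

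Relatives of the rule markers had ratios near 1 or in both directions. Of 4 compared, Glipr2 (53.7 against 32.8 CPM), Thbd (20.9 against 17.0 CPM) and Gfpt1 were higher in every library, and Crispld2 (432 against 466 CPM) was lower. Cd93 and Clec14a, relatives of Cd248 in endothelium, stayed under the level filter at 4.79 against 16.3 CPM and 4.19 against 10.0 CPM. Division genes were low in both classes: Mki67 was 1.51 against 1.92 CPM and Top2a 4.50 against 3.87 CPM. The oestrogen receptor gene Esr1 was 37.0 against 43.1 CPM. Of the 4 sex hormone receptor and target genes tested, 0 differed between the sexes by edgeR, with 0 at an unadjusted p under 0.05 and 0 by DESeq2. Of the immediate early genes, Jun was 47.1 against 29.3 CPM and Junb 56.5 against 36.3 CPM, both higher in every library, while the stress gene Hspa1a was 1.21 against 0.456 CPM.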
